A study of Homo sapiens with 5 samples.

Results

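Zinc finger genes of human chromosome 19 were followed through a mixture series of messenger RNA from NCI-H1975 and HCC827, 2 established cell lines grown from adenocarcinomas of the lung. The set was chosen by name and place alone, as the protein-coding genes of the GENCODE v44 annotation (GRCh38) that lie on chromosome 19 and are called ZNF and a number. It holds 246 of the 61220 genes to which transcripts of the tables were assigned, and 263 ZNF genes of other chromosomes served as background. Readthrough genes with joined names, such as ZNF559-ZNF177, were not counted as members.

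Each line was grown in its own culture and its poly(A) RNA was purified. By the sample titles, synthetic spike-in transcripts called sequins were added, mix A for NCI-H1975 and mix B for HCC827. The RNAs of 1 preparation per line were combined by mass so that HCC827 made up 0, 25, 50, 75 or 100%, and each mixture gave 1 library of PCR-amplified cDNA, read on a nanopore PromethION flow cell. In a library's name NCI-H1975 comes first, so 100:0 and 0:100 are the pure lines and 75:25, 50:50 and 25:75 hold both. The labels name no treatment or genetic change, and no ratio was repeated, so the scatter about a trend covers libraries of the same RNAs and not separate cultures.

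Zinc finger proteins of the C2H2 class bind DNA through tandem fingers, each holding a zinc ion. Many of those encoded on chromosome 19 arose by tandem duplication and lie in clusters, and most of the clustered ones carry a KRAB domain. That domain binds the corepressor TRIM28, which brings in the histone methyltransferase SETDB1 and heterochromatin proteins, and many KRAB zinc finger proteins silence transposable elements in this way. Their messages are usually scarce.

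The libraries held from 2932250 to 4058751 assigned reads, in no order along the series. In the 0:100 library all 3092629 were human, against 2926775 of 2932250 in 100:0, so no spike-in reads were counted in pure HCC827. Mitochondrial transcripts took from 5.65% to 8.85% of human reads and rose with the HCC827 share, while the mean length of the transcripts that reads were assigned to went from 2581 down to 2180 bases. Of 6 lung epithelial markers, all were tested and 5 rose, and EPCAM did not pass the test. Among 7 markers of fibroblasts, leukocytes and endothelium, PTPRC had 0 reads, and COL3A1, PDGFRB, PECAM1 and CDH5 had at most 10 reads each over the series. The list summed to 729, 797, 656, 433 and 274 reads along the series, nearly all from COL1A1, which fell, and CD68, which rose. Their part in the results below was not tested.

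All but 4 members had reads. The exceptions were ZNF729, ZNF98, ZNF534 and ZNF536, the last of which is a gene of the nervous system and the only member in band 19q12. A member was tested if it had at least 10 reads in at least 2 libraries, which left 204, and the 42 that were not tested had a median of 17 reads in all. The 204 had from 37 to 1980 reads over the 5 libraries, with a median of 148. For each gene, the edgeR quasi-likelihood test asked whether log2 expression had a slope along the HCC827 share, fitted on all 13492 genes with enough reads after TMM scaling. A slope is thus the log2 change over the whole HCC827 share as fitted, on the assumption that log2 expression changes evenly along it. RNAs mixed by mass add up on the plain scale and not on the log scale. A slope can therefore be less steep than the log2 ratio of the pure lines, as for genes nearly absent from HCC827. A gene is said to have risen or fallen where its p-value, adjusted over all genes by the Benjamini-Hochberg method, was under 0.05.

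Most of the chromosome 19 ZNF genes that changed were lower in HCC827. Of the 204 tested, 110 fell (53.9%), 7 rose (3.43%) and 87 did not pass (edgeR quasi-likelihood test). Over all 13492 genes, 22.3% fell and 23.5% rose. The median slope of the 204 was -1.28, with a middle range (quartiles) of -1.93 to -0.65, against -0.035 for all genes tested. Slopes were negative for 178 of the 204, including 68 of the 87 that did not pass. Without the 0:100 library 72 of 202 tested members fell, and 70 of those 72 were among the 110. Over all genes 1813 of 13352 fell in that fit. In these bulk RNAs, fewer cells with a message and less message per cell cannot be told apart.

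The ZNF genes of other chromosomes were divided more evenly at a like depth. Of 202 tested, with a median of 166.5 reads, 33 fell (16.3%) and 21 rose (10.4%), and their median slope was -0.072. The other protein-coding genes of chromosome 19 had a median slope on the opposite side, 0.40, with 126 of 713 falling and 285 rising. These are counts and medians of each set, and no test of the difference between sets was made.

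**Figure D1:**
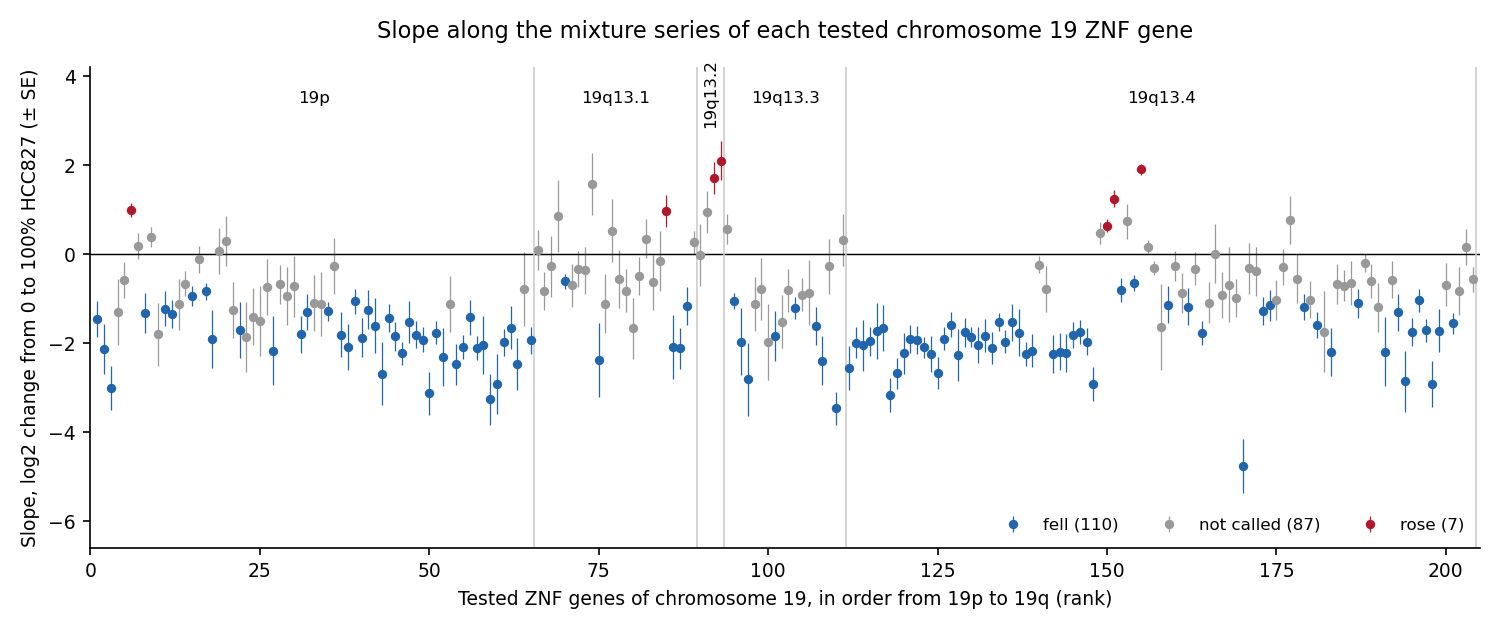
Slope of each of the 204 tested chromosome 19 ZNF genes in order along the chromosome (horizontal axis, rank). The vertical axis is the fitted log2 change from 0 to 100% HCC827, and bars are the standard error of the fit. Blue points fell (110), red points rose (7) and grey points did not pass (87). The blue points form an unbroken stretch of 28 members at the start of 19q13.4.

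Summed over all 246 members, reads made up 0.471% of human reads in the 100:0 library, then 0.371%, 0.305% and 0.233%, and 0.181% in the 0:100 library. The share thus fell at every step, by a slope of -0.287 percentage points along the series (p = 0.0167, two-sided exact permutation test over 120 orders of the libraries, the smallest value that 5 libraries allow). On the TMM scale, which removes the shift of the bulk of genes, the sum went from 4065 to 2084 CPM (reads scaled to a common library size), a ratio of 1.95. The sum of the ZNF genes of other chromosomes was 3351 CPM in the 100:0 library and 3323 in the 0:100 library, a ratio of 1.01. As a plain share of human reads that sum also fell at every step, from 0.388% to 0.289%, with the same p of 0.0167 (two-sided exact permutation test), so this test does not set the members apart.

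**Figure D2:**
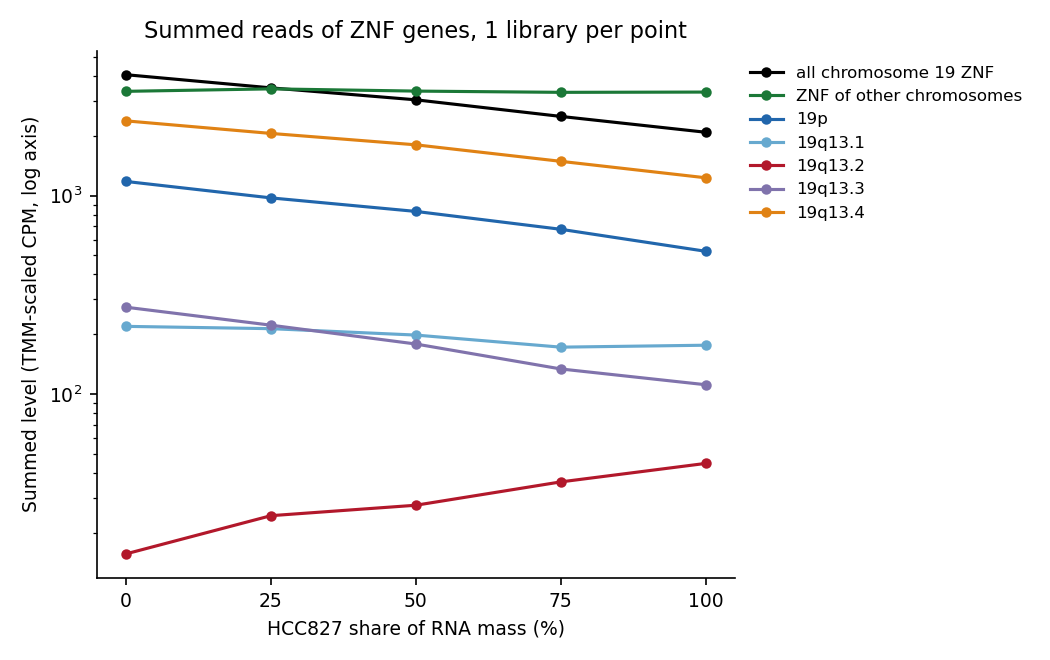
Summed level of ZNF genes (vertical axis, TMM-scaled CPM, log axis) against the HCC827 share of RNA mass (horizontal axis, %), 1 library per point and 1 line per set. The sum over chromosome 19 ran from 4065 to 2084 CPM, the sum over other chromosomes stayed between 3313 and 3449 CPM, and 19q13.2 was the only region drawn whose sum ended higher than it began.

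The members were then divided by place. Region 19p held 83 members, of which 65 were tested. There 41 fell (24 without the 0:100 library) and 1 rose, with a median slope of -1.45, while of 365 tested non-ZNF protein-coding genes of the same arm 73 fell and 116 rose, with a median of 0.16. Region 19q13.4 held 98 members, of which 93 were tested. There 56 fell and 3 rose, with a median of -1.53, and of 67 other protein-coding genes 31 fell and 16 rose, with a median of -0.51. In 19q13.3, 8 of 18 tested members fell and 0 rose (edgeR, with 0 rising at an unadjusted p under 0.05 and 0 under DESeq2), with a median of -1.16 against 0.63 for 141 other genes. Of these 18, 15 lay in band 19q13.31, where 7 fell, with a median of -1.21. The other protein-coding genes of that band fell in the same share, 7 of 15, while 3 rose, with a median of -0.56.

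Falling members were fewer in 19q13.1 and 19q13.2. In 19q13.1, 5 of 24 tested members fell and 1 rose, with a median slope of -0.52 against 0.72 for 54 other genes. Without the 0:100 library 1 fell there and 0 rose, and without 100:0, 75:25 or 25:75 3 fell and 0 rose. In 19q13.2 only 4 of 5 members could be tested. Of these ZNF526 and ZNF574 rose and none fell, with 0 falling at an unadjusted p under 0.05 (edgeR) and 0 under DESeq2. Their median of 1.33 lay beside a median of 1.55 for the other 80 tested genes of the region, of which 61 rose.

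**Figure D3:**
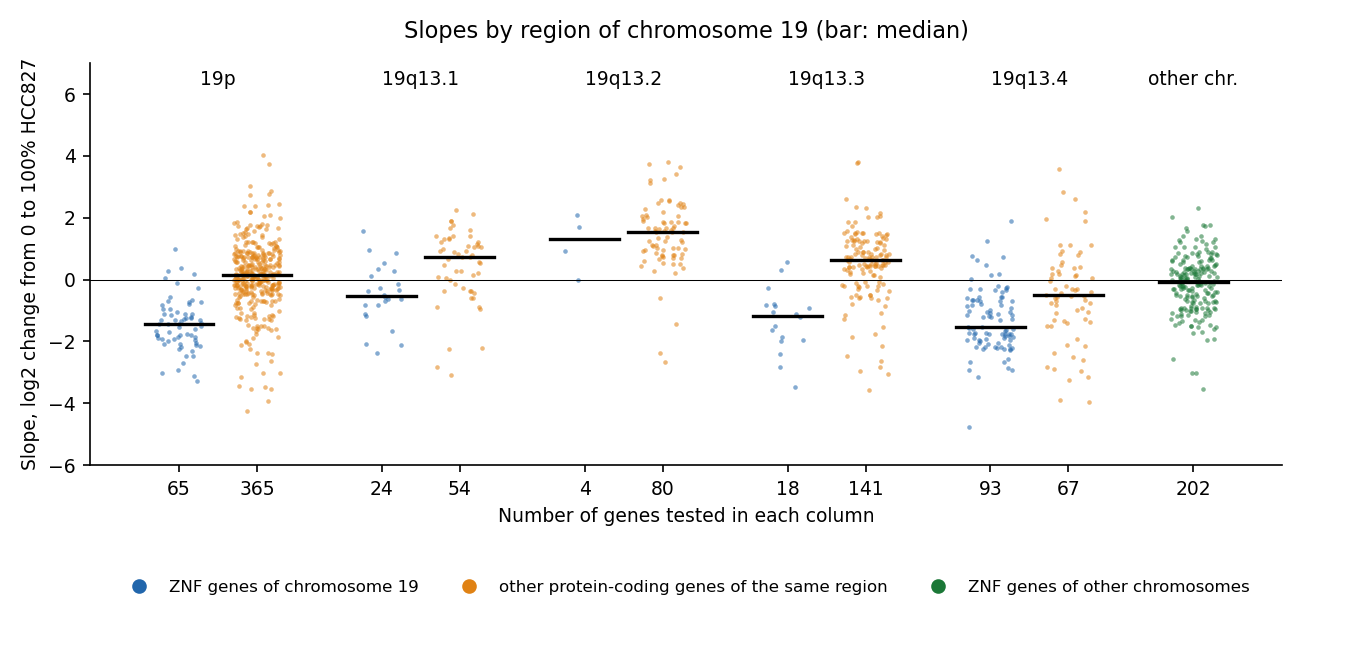
Slopes (vertical axis, fitted log2 change from 0 to 100% HCC827) of single genes, with gene numbers under each column and a bar at the median. In each region of chromosome 19 the ZNF genes (blue) stand beside the other protein-coding genes (orange), and the ZNF genes of other chromosomes (green) are on the right. The blue median is under the orange one in all 5 regions drawn, by the least in 19q13.2 (1.33 against 1.55).

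In order along the chromosome, 68 of the 110 members that fell lay in 5 rows of at least 7 neighbouring tested members that all fell, and 23 had no such neighbour, among them ZNF17 and ZNF114. No test of adjacency was made. The longest row ran from ZNF577 to ZNF415, 28 members over 1328 kb (chromosome 19, 51804816 to 53133077), and took in every one of the 27 tested members of band 19q13.41. Slopes in it ran from -3.16 to -1.52, and 19 of the 28 fell at every step of the series. The 3 non-ZNF protein-coding genes tested inside this stretch, PPP2R1A, ERVV-2 and ENSG00000269825, fell too. PPP2R1A, a scaffold subunit of protein phosphatase 2A, had a slope of -0.51 ± 0.12 (SE). The slopes of the others were as steep as the steepest of the members, -3.16 ± 0.61 for ENSG00000269825 with 98 reads and -3.25 ± 1.03 for ERVV-2 with 28 reads. In the same band but before the stretch, KLK6, KLK8, KLK10, CTU1, ETFB and SPACA6 rose.

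On the short arm, 16 neighbouring members from ZNF101 to ZNF708 (19668796 to 21329425) and 10 from ZNF493 to ZNF681 (21397119 to 23758891) fell, and no non-ZNF protein-coding gene inside either stretch could be tested. In band 19p12 as a whole, 23 of 25 tested members fell and the other 2 did not pass. The band held only 1 tested non-ZNF protein-coding gene, which did not pass and had a slope of -1.09. The non-ZNF genes of 19p given above thus come almost wholly from other bands. The sum over the 33 members of the band went from 569 to 113 CPM, a ratio of 5.03. For the 29 members of 19q13.41 the sum went from 946 to 180 CPM, a ratio of 5.25. A further 7 neighbours from ZNF677 to ZNF331 fell in 19q13.42 and 7 from ZNF606 to ZNF497 in 19q13.43. Inside the stretch from ZNF677 no non-ZNF protein-coding gene could be tested. Inside that from ZNF606, 6 were tested, of which 3 fell and 0 rose, with a median slope of -0.86. Band 19q13.43 as a whole was mixed, with 19 of 49 tested members falling (38.8%), the rest not passing and a median slope of -1.02. Of its 19 tested non-ZNF protein-coding genes 9 fell (47.4%) and 2 rose, with a median of -0.59. In 19q13.42, 10 of 17 tested members fell (58.8%) and 3 rose, with a median of -0.81. Of 39 other protein-coding genes there 19 fell (48.7%) and 8 rose, with a median of -0.54.

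Promoter sequence was looked at because many neighbours moved together. RefSeq promoters (GRCh38.p14, 250 bases before to 50 after the start) were found for 216 of the 246 members. Shown, 5′ to 3′ on the strand of the gene, are the 250 bases before the start of ZNF724 (19p12, chr19:23250395-23250644, minus strand), ZNF841 (19q13.41, chr19:52095766-52096015, minus strand) and ZNF135 (19q13.43, chr19:58058989-58059238, plus strand), which fell, and of ZNF358 (19p13.2, chr19:7515853-7516102, plus strand), which rose. They were picked after the slopes were seen, 1 from each of 4 bands, as members whose window touches no annotated exon. Capitals mark the dinucleotide CG, which is the same on both strands.
ZNF724: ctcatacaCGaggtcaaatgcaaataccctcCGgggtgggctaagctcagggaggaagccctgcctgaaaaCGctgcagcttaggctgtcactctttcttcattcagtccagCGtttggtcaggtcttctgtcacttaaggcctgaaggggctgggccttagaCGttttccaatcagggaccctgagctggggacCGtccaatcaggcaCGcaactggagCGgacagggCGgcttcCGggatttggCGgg
ZNF841: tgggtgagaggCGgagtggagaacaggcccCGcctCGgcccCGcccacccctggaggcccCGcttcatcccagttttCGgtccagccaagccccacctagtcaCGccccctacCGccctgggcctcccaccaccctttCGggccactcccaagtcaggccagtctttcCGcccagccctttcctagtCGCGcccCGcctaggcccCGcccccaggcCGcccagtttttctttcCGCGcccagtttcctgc
ZNF135: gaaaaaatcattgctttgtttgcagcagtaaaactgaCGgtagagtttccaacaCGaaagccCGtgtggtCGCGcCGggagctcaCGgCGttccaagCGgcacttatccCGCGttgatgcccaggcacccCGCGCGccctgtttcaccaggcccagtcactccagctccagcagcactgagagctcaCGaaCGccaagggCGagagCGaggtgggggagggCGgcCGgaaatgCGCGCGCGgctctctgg
ZNF358: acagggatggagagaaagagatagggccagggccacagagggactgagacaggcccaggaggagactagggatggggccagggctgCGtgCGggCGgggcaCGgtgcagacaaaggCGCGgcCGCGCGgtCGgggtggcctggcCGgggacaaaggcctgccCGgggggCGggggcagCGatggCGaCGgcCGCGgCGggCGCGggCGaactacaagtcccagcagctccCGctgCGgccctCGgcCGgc
These windows hold 11, 17, 24 and 26 CG. In the 300-base promoters, the median number of CG was 21 for the 99 members that fell and were matched, 20 for 78 that did not pass and 20.5 for 6 that rose. Within 19p it was 12 for those that fell and 17 for those that did not pass, and within 19q13.4 it was 25 and 24. By place it was 15 in 19p and 23.5 in 19q13.4, regions where 63.1% and 60.2% of tested members fell. ZNF genes of other chromosomes had a median of 24 and all tested protein-coding genes 26.

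Beside CG, 15 short elements were searched on both strands, with no test. CCGGAAG, the core bound by ETS factors, was held by 54.5% of the promoters of members that fell, 32 of the 78 that did not pass, 34.1% of those of ZNF genes on other chromosomes, 20.4% of those of tested protein-coding genes and 10.7% of all 27305 in the table. The longer CCGGAAGT, which contains it, went the other way, with 18.2% of members that fell and 28.2% of those that did not pass. Within 19q13.4 the shorter CCGGAAG was held by 62.0% of 50 that fell and 58.6% of 29 that did not pass, and within 19p by 48.6% of 37 and 23.8% of 21. CCAAT was held by 82.2% of members in 19p, 48.8% in 19q13.4 and 43.5% of ZNF genes on other chromosomes. It was held by 36.8% of tested protein-coding genes and 35.7% of all promoters. By call, 52.5% of members that fell held it and 55.1% of those that did not pass. TATAAA was held by 1.85% of members, 4.21% of ZNF genes on other chromosomes, 5.29% of tested protein-coding genes and 11.95% of all. These are matches of letters and not binding sites.

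The largest fall in the fit to all 5 libraries was that of ZNF17 (ENSG00000186272.13, 19q13.43, 57411161 to 57421934, plus strand). It had 62 reads in the 100:0 library, then 22, 13 and 6, and 1 in the 0:100 library, or 18.3, 5.10, 3.34, 2.10 and 0.372 CPM. Its slope was -4.76 ± 0.61 (SE, adjusted p = 5.19e-05). The 75:25 library, mostly NCI-H1975 RNA, was already low, and no library was out of order. Its place as the largest fall rests on the 100:0 library. Without that library its slope was -3.55, and ZNF114, ZNF135 and ZNF432 were among those with steeper ones (-4.25, -4.18 and -4.11).

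ZNF114 (ENSG00000178150.10, 19q13.33, 48270081 to 48287608, plus strand) had 204, 175, 103, 35 and 6 reads along the series, or 60.1, 40.6, 26.5, 12.2 and 2.23 CPM, and its slope was -3.46 ± 0.37 (SE, adjusted p = 1.51e-05). It was 26.9-fold lower in the pure HCC827 library. ZNF432 (ENSG00000256087.7, 19q13.41, 52031378 to 52095738, minus strand) went from 48.1 to 2.98 CPM, with 163, 161, 98, 30 and 8 reads and a slope of -3.16 ± 0.38 (adjusted p = 3.25e-05). It overlaps ZNF841 on the same strand, which had 105, 89, 63, 26 and 8 reads, so the division of reads between the pair is uncertain. Both fell at every step.

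In 19p12, ZNF714 (ENSG00000160352.16, 21082159 to 21125270, plus strand) had 185, 146, 94 and 50 reads in the libraries with NCI-H1975 RNA and 2 in pure HCC827, with CPM values of 54.5, 33.8, 24.1, 17.5 and 0.744. ZNF676 (22179089 to 22215801, minus strand) had 103, 79, 55, 24 and 0 reads. Against the 3 reads that a count of 0 allows, it was at least 27.2-fold lower in HCC827. ZNF724 (23221599 to 23250394, minus strand) had 24, 16, 8, 4 and 3 reads. Part of its main transcript is identical to one of another annotated gene, so its count is uncertain.

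The other members among the 10 largest falls were spread over the chromosome. ZNF556, at the short-arm end in 19p13.3, had 86, 97, 46, 25 and 2 reads. ZNF331, an imprinted gene of 19q13.42, had 95, 78, 43, 25 and 5 reads and a slope of -2.92 ± 0.38 (SE, adjusted p = 6.33e-05). In 19q13.43, ZNF8 had 55, 42, 32, 13 and 2 reads, and ZNF135 had 43, 48, 33, 12 and 0. ZNF8 shares its strand with the readthrough gene ZNF8-ERVK3-1. ZNF135 overlaps ZSCAN18 on the opposite strand, which had 1615 reads and fell as well, and whether counting used the strand is not given in the sources used here.

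**Figure D4:**
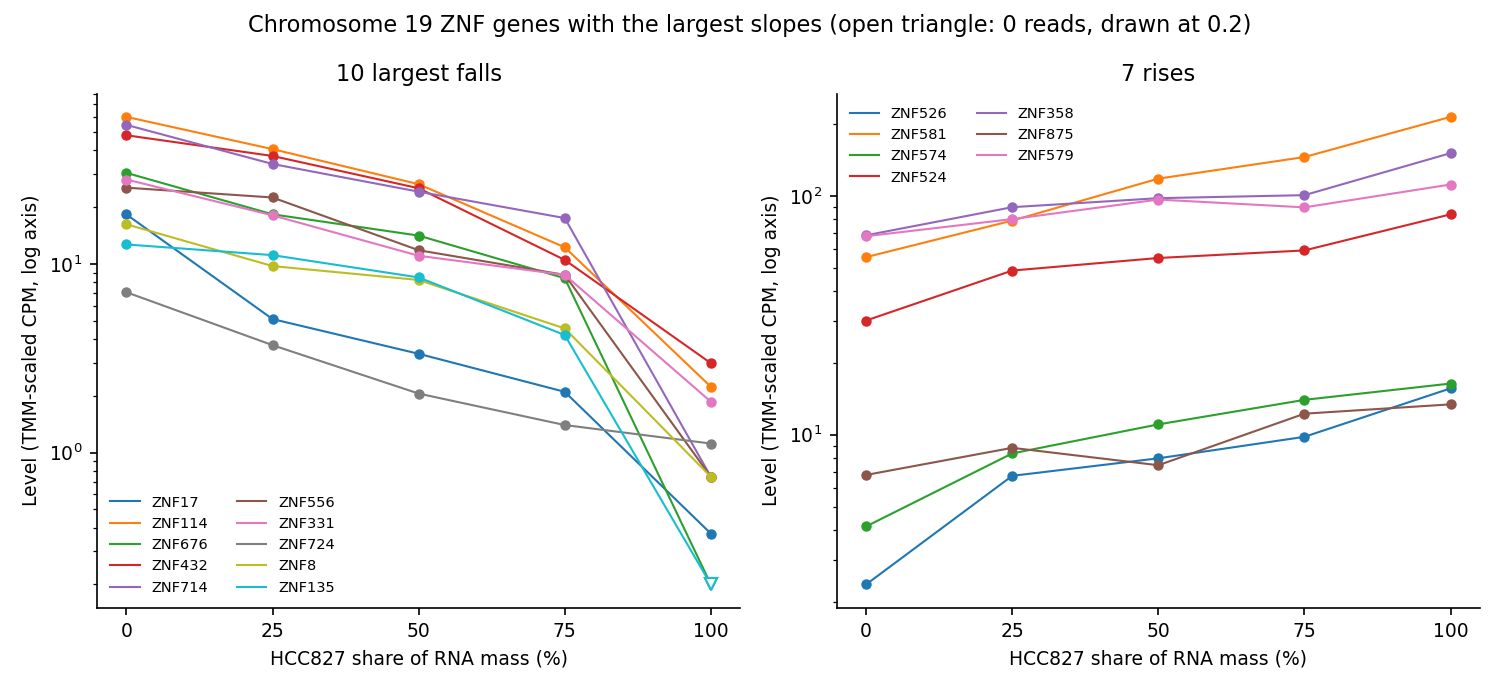
Level (vertical axis, TMM-scaled CPM, log axis) of the 10 members with the largest falls (left) and of the 7 that rose (right) against the HCC827 share of RNA mass (horizontal axis, %), 1 library per point. Open triangles mark libraries with 0 reads, drawn at 0.2 CPM; those of ZNF676 and ZNF135 coincide. All 10 falling genes end below 3 CPM, and ZNF581 ends highest of the rising ones at 214 CPM.

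Loss of nearly all reads was seen in 1 direction only. At least 20 reads in the 100:0 library together with at most 3 in the 0:100 library were found for 17 of the 204 tested members (8.33%), against 2.56% of all genes tested. The reverse was found for 0 members, against 1.00% of all genes. Of the 17, 10 lay on 19p and 5 in 19q13.4, and 16 fell by the test. Besides ZNF17, ZNF556, ZNF714, ZNF676, ZNF724, ZNF8 and ZNF135, they were ZNF846, ZNF440, ZNF700, ZNF90, ZNF708, ZNF257, ZNF569, ZNF404, ZNF613 and ZNF808. The exception was ZNF700, with 20, 10, 22, 7 and 3 reads and a slope of -1.50 ± 0.78 (SE, edgeR adjusted p = 0.133). ZNF808, whose loss in humans impairs development of the pancreas, had 26, 21, 18, 7 and 3 reads, of which 88.0% were assigned to a transcript annotated for nonsense-mediated decay. It overlaps ZNF701 on the same strand. Without the 0:100 library ZNF846, ZNF440, ZNF708, ZNF257, ZNF569, ZNF613 and ZNF808 lost their call, and without 100:0 ZNF846, ZNF440, ZNF257, ZNF613 and ZNF808 did. ZNF440 also lost it without 75:25 or 50:50 and with the trend on transcript length removed, and ZNF569 without 75:25. Without 100:0, ZNF724 and ZNF404 had too few reads to be tested, as had ZNF724 without 75:25 and ZNF404 without 50:50. Under DESeq2's Wald test ZNF846, ZNF440, ZNF90 and ZNF404 did not pass (adjusted p = 0.0780, 0.0554, 0.0534 and 0.0617). ZNF90 overlaps an unnamed gene on the opposite strand with 133 reads, and ZNF404 had 26, 7, 10, 4 and 3 reads and shares sequence with another annotated gene.

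Some of the best-studied members fell without being lost. They were chosen for their known roles after their values were seen. ZNF91, which restrains SVA and young L1 retrotransposons, had 122, 124, 96, 43 and 19 reads, or 35.97, 28.7, 24.7, 15.04 and 7.07 CPM. On the CPM scale it fell at every step, with a slope of -1.97 ± 0.30 (SE, edgeR adjusted p = 0.000195). ZNF93, which acts on older L1 elements, went from 13.6 to 4.09 CPM with the 25:75 library above 50:50, and its slope was -1.25 ± 0.43 (adjusted p = 0.0310). ZNF93 lost its call without 100:0, 75:25 or 0:100 and under DESeq2's Wald test. ZNF274, which binds at the ends of zinc finger genes themselves and recruits SETDB1 there, had 102, 112, 68, 57 and 38 reads and a slope of -1.03 ± 0.26 (adjusted p = 0.00570).

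Among the 8 members with most reads, 3 fell, 3 rose and 2 did not pass. ZNF480 (19q13.41, 52297169 to 52325922) had the most reads of those that fell, with 162, 119, 102, 67.9 and 29.8 CPM from 550 to 80 reads, and a slope of -2.09 ± 0.23 (SE, edgeR adjusted p = 1.77e-05). ZNF146, a protein of zinc fingers with no KRAB domain, fell less, from 66.3 to 42.4 CPM, and did not pass without the 0:100 library. ZNF787 and ZNF444 had slopes of 0.17 ± 0.15 and -0.30 ± 0.16 (adjusted p = 0.375 and 0.130). Together the 8 held 21.2% of the reads of all members.

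The 7 members that rose were led by ZNF526 and ZNF581. ZNF581 (ENSG00000171425.10, 19q13.42, 55635459 to 55645623, plus strand) had the most reads of any member, with 188, 340, 460, 416 and 576 reads, or 55.4, 78.8, 118, 146 and 214 CPM. It rose at every step on the CPM scale, with a slope of 1.91 ± 0.13 (SE, edgeR adjusted p = 2.00e-06). Its neighbour ZNF580, which overlaps it on the same strand, went the other way, with 75.5, 74.4, 66.8, 45.8 and 54.3 CPM and a slope of -0.65 ± 0.18 (adjusted p = 0.0107). Reads of the overlap could have been assigned to either gene. ZNF579 and ZNF524, within the same part of 19q13.42, rose by slopes of 0.64 ± 0.15 and 1.25 ± 0.19. ZNF524 went from 30.1 to 83.7 CPM, and FIZ1 overlaps it on the opposite strand with 355 reads. ZNF579 lost its call when libraries were scaled by totals.

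In 19q13.2, ZNF526 (42220292 to 42228201) had 8, 29, 31, 28 and 42 reads and a slope of 2.11 ± 0.43 (SE, edgeR adjusted p = 0.00157), the largest rise of the set. GSK3A overlaps it on the opposite strand with 431 reads. ZNF574 (42068477 to 42081552) had 14, 36, 43, 40 and 44 reads and a slope of 1.71 ± 0.36 (adjusted p = 0.00203). Both were lowest in the 100:0 library and rose at every step on the CPM scale. ZNF358 in 19p13.2 went from 68.4 to 151 CPM. ZNF875 in 19q13.12, formerly HKR1, had a slope of 0.97 ± 0.37 (adjusted p = 0.0452) and lost its call in 8 of the 12 other settings, among them the fits without 100:0, 75:25, 25:75 or 0:100. The read-weighted transcript length of the 7 had a median of 2671 bases, against 3650 for the 110 that fell.

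Comparing only the pure libraries, without a test, divided the members in a like way. After TMM scaling, with a library under 3 reads set to 3, 131 of the 204 (64.2%) were at least 2-fold lower in HCC827 and 9 (4.41%) at least 2-fold higher. Over 13488 genes these shares were 18.4% and 16.3%. The median log2 ratio of the 204, which holds such genes at that floor, was -1.43. At least 4-fold lower were 60 members and at least 4-fold higher 1, beside 5.98% and 4.97% of all genes. In between, 64 of the 204 (31.4%) fell at every step and 6 rose at every step, against 13.6% and 14.9% of all genes.

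Members have long transcripts and the libraries of more HCC827 RNA held shorter ones, so slopes were set out by length. Of members with transcripts under 2000 bases, 9 of 24 fell (37.5%), and the shares were 47.4% of 57 from 2000 to 3000 bases, 64.6% of 48 from 3000 to 4000 and 57.3% of 75 from 4000 bases up. The ZNF genes of other chromosomes, whose median length of 3692 bases was above the 3499 of the members, gave 3 of 20, 10.9%, 15.6% and 19.8% in the same classes. Over all genes the shares were 16.9%, 19.9%, 23.4% and 28.9%. With the length trend of each library removed, 102 members fell and 8 rose, and the median slope was -1.25. By depth, 2 of 12 members under 50 reads fell (16.7%), then 33.3% of 48 from 50 to 100 reads and 54.4% of 79 from 100 to 250. Of the 65 with at least 250 reads, 75.4% fell. On other chromosomes the shares in these classes were 0 of 5, 7.5% of 53, 21.4% of 70 and 18.9% of 74. Over all genes they were 15.3%, 16.3%, 19.9% and 25.1%.

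**Figure D5:**
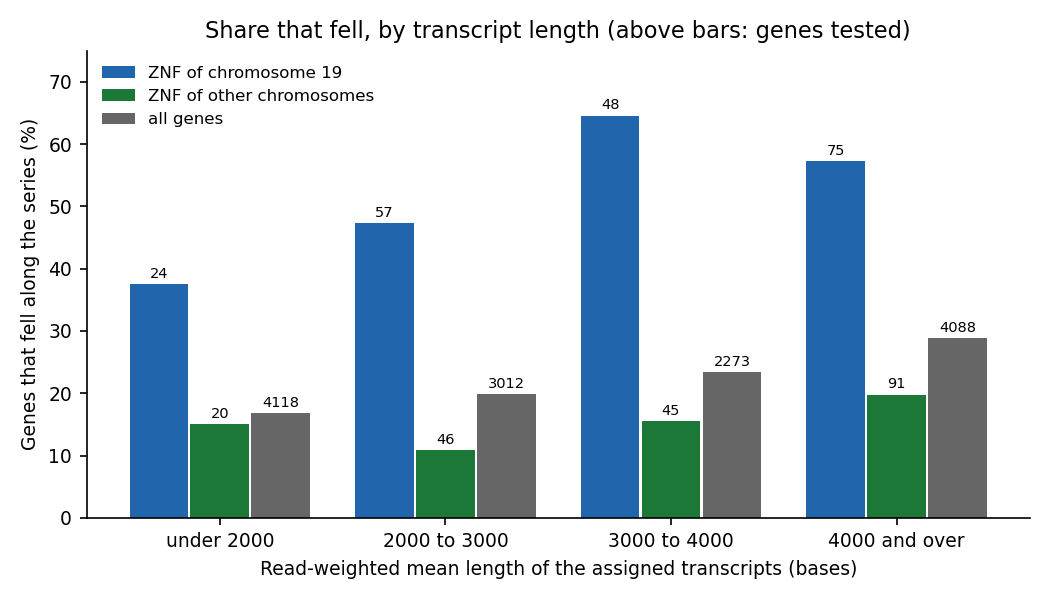
Share of tested genes that fell along the series (vertical axis, %) in 4 classes of transcript length (horizontal axis, bases), with the number of genes tested above each bar. In each class the bar of the chromosome 19 ZNF genes is higher (37.5% to 64.6%) than those of other ZNF genes (10.9% to 19.8%) and of all genes (16.9% to 28.9%).

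The assigned transcripts of the members kept their kinds. Protein-coding transcripts took 91.6% of member reads in pure NCI-H1975 and 93.7% in pure HCC827, retained-intron transcripts 2.71% and 1.84%, and transcripts annotated for nonsense-mediated decay 3.45% and 2.86%. For 100 of the 110 members that fell, the transcript with most reads was protein-coding. In 16 members the most-read transcript was at least 95% identical over at least 50% of its length to a transcript of another gene. Without them, 107 members fell and 7 rose. In all, 101 members overlap another gene that held at least 10% as many reads.

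The cofactors of KRAB proteins were divided much like genes at large. Of a list of 16 repression genes, all tested, 5 rose, 3 fell and 8 did not pass, with a median slope of 0.18 (edgeR), beside 23.5% rising, 22.3% falling and a median of -0.035 over all genes. TRIM28, the shared corepressor, itself in 19q13.43, was at 485 CPM in the 100:0 and 514 in the 0:100 library, with a slope of 0.063 ± 0.12 (SE, adjusted p = 0.686). SETDB1, the methyltransferase, rose from 11.2 to 21.2 CPM, and the histone deacetylase gene HDAC1, the remodeller genes CHD3 and CHD4 and the DNA methyltransferase gene DNMT1 rose too. CBX3, which encodes a heterochromatin protein, fell from 566 to 231 CPM, and UHRF1, a partner of DNMT1, and TASOR, a subunit of the HUSH silencing complex, also fell. CBX1, CBX5, ATF7IP, HDAC2, MORC2, MPHOSPH8 and PPHLN1 did not pass.

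Other zinc finger genes of chromosome 19 that carry different names were taken from a list of 19. Under current names HKR1 and ZFP112 are the members ZNF875 and ZNF112, which left 17. Of these 13 were tested, 5 fell and 8 did not pass (edgeR), and the median slope was -0.94. Over all genes 22.3% fell and the median was -0.035. ZIK1, ZSCAN5A, ZSCAN18, the imprinted PEG3 and ZBTB7A fell, ZIK1 from 20.05 to 5.21 CPM and ZSCAN18 from 115 to 58.8 CPM.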

How the data were processed

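The authors deposited 1 table per library with an estimated count of reads per transcript, not scaled, and a transcript length. GRCh38, minimap2 2.24 and Salmon 1.9.0 are named, per the submitters' processing notes, without their roles. The annotation release and any use of strand are not given in the sources used here. Values were rounded to whole reads, identifiers listed more than once were summed, and transcripts were paired with genes through GENCODE v44 (98.6% of human reads). Depth ran from 2932250 to 4058751 reads, and without molecular identifiers PCR copies count as separate reads.

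Slopes on the HCC827 mass fraction were tested with edgeR 4.0.16 (R 4.3.3, glmQLFit and glmQLFTest, TMM) over all genes with at least 10 reads in at least 2 of 5 libraries. DESeq2 1.42.0, other scalings, filters, transcript sets, a length correction and fits without each library were alternatives. A count of 0 was taken to allow 3 reads. On simulated data with 13132 genes, 53 of 100 genes changed 2-fold and 86 of 100 changed 4-fold were recovered, with 14 false calls. The changed genes were drawn above a minimum of reads, and the scatter was set alike for all genes. They were a far smaller part than the 45.8% of genes called in the data, so these rates may not hold there. Bands of GRCh38 were assigned by gene midpoint. Members named are the 10 largest slopes each way among those past the threshold (7 rose), the 8 with most reads and those with at least 20 reads in 1 pure library and at most 3 in the other. ZNF91, ZNF93, ZNF274 and ZNF841 were added later. These added members and the gene lists were chosen with earlier results of these data known. The set of 246 was defined by name and place.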

Additional observations from a re-analysis of the deposited data

How the results depend on the processing

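The number of members that fell was 110 and lay between 88 and 134 under DESeq2 size factors, library totals, no read filter, protein-coding transcripts only, removal of the length trend, DESeq2's Wald test (88) and, added after the data were seen, removal of members with near copies. It was 72 of 121 tested with 10 reads required in every library, which tests fewer genes and leaves out members lost in HCC827. Over all genes 2613 of 10884 fell under that filter. It also gave 23 of 31 in 19p, 2 of 12 in 19q13.1 and 4 of 7 in 19q13.3, and 1 of 2 rising in 19q13.2. Fits without 1 library gave 72 to 105 falling and 6 to 7 rising members, 24 to 40 falling in 19p, 1 to 4 falling and 0 to 1 rising in 19q13.1, 6 to 8 falling in 19q13.3, 41 to 55 falling in 19q13.4, and 13 to 31 falling and 11 to 18 rising among ZNF genes of other chromosomes. The lowest count of falling members came without the 0:100 library, 72 of 202 tested in all and 24 of 65 in 19p. On other chromosomes the counts moved that far without 0:100 (13 falling, 11 rising) and without 100:0 (12 rising).

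Library totals moved the median slope of all genes from -0.035 to -0.44 and gave 61 falling and 12 rising on other chromosomes. DESeq2's Wald test gave 21 and 13, and 3 falling in 19q13.1. The single rise in 19q13.1, ZNF875, was 0 under library totals, no read filter, protein-coding transcripts and the Wald test, and the length correction gave 2. At 4-fold, 60 members were lower and 1 higher in HCC827 (5.98% and 4.97% of all genes), and 5 were at least 2-fold higher under library totals. The summed share had slopes of -0.312 to -0.257 without 1 library, where 4 libraries allow no p under 0.0833 or 0.0417. ZNF787, which did not pass, reversed to -0.24 under library totals, and its slopes without 1 library ran from -0.014 (without 0:100) to 0.37. The cause was not tested for any of these. For 36 members, those named by rule and ZNF91, ZNF93, ZNF274 and ZNF841, 365 slopes under alternatives kept their side of the threshold, 34 lost it, 2 gained it and 2 reversed. No paired analysis was possible because each ratio has 1 library.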
